A study of Homo sapiens with 8 samples.

Results

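KCNK6, TM7SF3, SEMA7A, DIXDC1, FHL3, SAMD11, SYBU, XIAP and SHISA5 are 9 protein-coding genes. Each had, within its bounds and on its strand, a LARP6 peak in the list from cells given TGFβ1. At that peak neither control library was enriched. These genes are 9 of 9073 genes with a tested cluster in any library and 9 of 386 genes in the TGFβ1 list. They were chosen from the measured values themselves. Of 1008 TGFβ1-list peaks, 248 (24.6%) overlapped no enriched control cluster. These were ordered by the list's log2 fold, and these genes hold the places after FLNA, at 5.75. The last one taken was SHISA5 at 5.23, and the first left out were OLFM2 at 5.21, PAK2 at 5.17 and CEMIP2 at 5.16, so the limit falls in a near-continuous series. The difference between conditions at these peaks is therefore what defined the genes, and it is described here without a test.

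LARP6, of the La-related protein family, binds RNA in the cytoplasm and is best known for binding a stem-loop near the start of type I collagen mRNAs and for its part in their translation. Hepatic stellate cells are the vitamin A-storing pericytes of the liver, which turn into collagen-secreting myofibroblasts when activated, and TGFβ1 is the main cytokine that drives this change. In eCLIP the RNA bound to a protein is fixed to it with ultraviolet light, trimmed, immunoprecipitated, cut from a gel beside a size-matched input and sequenced, so that a cluster of reads can be scored against the input.

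All 8 samples came from human hepatic stellate cells of wild-type genotype, crosslinked at 254 nm and 400 mJ/cm2. Treated cells had received TGFβ1 at 5 ng/ml, for a time not given in the sources used here. Control cells are labelled Untreated under treatment and DMSO as their source, so both names apply to them. Each condition had 2 anti-LARP6 libraries and 2 inputs, and the inputs enter here through the authors' log2 fold of each cluster over its input and the −log10 p of that comparison. A cluster was called enriched with both values at 3 or more. Whether the cells are 1 line or several donors, and whether replicates were separate cultures, is not stated, so the spread between replicates may be technical. Exact permutation of 2 libraries against 2 cannot give a two-sided p below 1 in 3.

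The libraries held between 31137 and 54536 tested clusters, of which 1.21% and 2.09% were enriched in control replicates 1 and 2 and 2.69% and 3.64% in TGFβ1 replicates 1 and 2. Read depth is unknown, since the files hold no counts. Of 14 stellate cell markers, 11 had clusters in every library, and DES, RGS5 and LRAT had none. None of 8 hepatocyte markers had a cluster, 1 of 7 endothelial markers did (KDR, in TGFβ1 replicate 2), and 1 of 8 leukocyte markers did (CD68). Of 5 cholangiocyte markers, KRT7, SOX9 and SPP1 had clusters, 15 and 18 after TGFβ1 against 4 and 3 in control, while KRT19 and EPCAM had none. Their part in the results was not tested.

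The 9 genes fall into 3 rough groups by what their proteins do. KCNK6 (a tandem-pore potassium channel), TM7SF3 (a multi-pass membrane protein) and SEMA7A (a membrane-anchored semaphorin that signals through integrins and plexins) act at membranes. DIXDC1 (a DIX domain protein of the Wnt pathway), FHL3 (a LIM-only protein of actin structures and the nucleus), SAMD11 (a nuclear protein with a sterile alpha motif) and SYBU (syntabulin, which couples membrane cargo to conventional kinesin) act in signalling, transcription and transport. XIAP (an inhibitor of caspases) and SHISA5 (an endoplasmic reticulum protein induced by p53) are regulators of apoptosis.

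No genome sequence was used, and the promoter windows from RefSeq (GRCh38.p14) cover 8 of the 9 genes with 14 windows. A single enriched cluster of these genes reached into such a window, that of TM7SF3 in TGFβ1 replicate 1. Its overlap with the first transcribed bases is shown because it is the 1 enriched cluster for which a sequence was at hand (chr12:27014335-27014351, minus strand, 17 nt, 5′ to 3′, DNA letters).
TM7SF3: aggagttcggcggggcg
This stretch is the 5′ end of a cluster from 27014123 to 27014351 with a log2 fold of 3.71 and a −log10 p of 3.22, just past both limits. Over the same bases TGFβ1 replicate 2 had a cluster of 0.46, so the 5′ end was enriched in 1 library.

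At the leading peak of each gene, meaning its highest TGFβ1-list peak without an enriched control counterpart, all 18 values of the TGFβ1 libraries were past both limits, from 3.75 to 6.45 in log2 fold and from 4.99 to 41.1 in −log10 p. Control libraries had a tested cluster at 8 of the 9 peaks. Those 16 control values ran from 1.38 to 3.51 with a median of 2.85, and 14 of them were at least 2. Of the 16, 3 were at or over the fold limit of 3. The −log10 p of the control clusters ran from 0.17 to 3.24, and 1 of 16 reached 3, so the control folds were above 0 but enrichment over input was not shown by these limits.

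**Figure D1:**
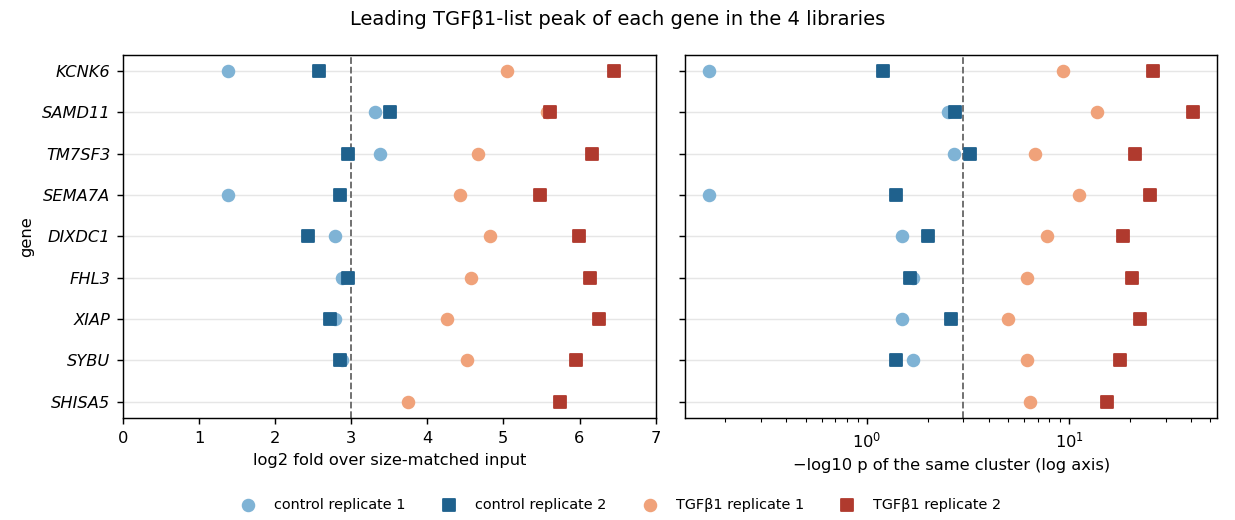
Log2 fold over size-matched input (left) and −log10 p on a log axis (right) at the leading TGFβ1-list peak of the 9 genes, with 1 point for each library and dashed lines at the limit of 3. Control points sit between 1.38 and 3.51 in log2 fold and TGFβ1 points between 3.75 and 6.45, and SHISA5 has no control point because no cluster was tested there.

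In all 8 genes with values in both conditions, both TGFβ1 values lay above both control values, as the choice of peaks makes likely. Among all 981 TGFβ1-list peaks with a cluster in every library the same held for 44.8%, and for 83.8% of the 235 of them without an enriched control cluster. The median difference, TGFβ1 minus control, was 2.47 over the 8 genes and 0.78 over the 981 peaks. TGFβ1 replicate 2 was above replicate 1 in all 9 genes, with a median gap of 1.43 against 0.65 over the 981 peaks. Control replicate 2 was above replicate 1 in 4 of the 8 genes with control values, with a signed median gap of 0.02 against 0.47 over the 981 peaks. That median hides wide single gaps in both KCNK6 and SEMA7A, where control replicate 1 was at 1.38. The differences were thus mostly larger in TGFβ1 replicate 2, and replicate 1 was also above both control values in each of the 8 genes.

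Several control values recurred to the last digit in different genes. KCNK6 and SEMA7A both had 1.38 with a −log10 p of 0.17 in control replicate 1, a pair of values held by 1790 clusters of that library. FHL3 and SYBU both had 2.88 with 1.70 there, shared by 57 clusters, and DIXDC1 and XIAP shared a log2 fold of 2.79 and its −log10 p with 67 clusters in all. In the TGFβ1 libraries no leading value was held by more than 12 clusters. The control values at these places were thus mostly ones that recur across the library, and the SD between replicates does not show that coarseness.

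KCNK6 had the widest difference of the 8 genes with control values. Its leading peak (GRCh38, chromosome 19, 38330215 to 38330283, plus strand) had log2 folds of 1.38 and 2.58 in control replicates 1 and 2 and 5.04 and 6.45 in TGFβ1 replicates 1 and 2. The means were 1.98 ± 0.85 and 5.75 ± 0.99 (SD, n = 2), and the groups did not overlap. The whole gene had 5 and 5 tested clusters after TGFβ1 against 3 and 5 in control. Of these, 1 and 3 were enriched after TGFβ1 and 0 and 0 in control. All enriched ones lay within the leading peak or next to it. The gene YIF1B overlaps the 5′ end of KCNK6 on the opposite strand, away from this peak.

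SEMA7A showed a single enriched site. Its leading peak (chromosome 15, 74410469 to 74410557, minus strand) had 1.38 and 2.85 in control against 4.43 and 5.48 after TGFβ1, with means of 2.11 ± 1.04 and 4.95 ± 0.74 (SD, n = 2). Control replicates were further apart here than in any of the other 7 genes with control values. Outside this site no cluster of the gene was enriched, although 9 and 16 clusters were tested after TGFβ1 against 4 and 1 in control. A nearby cluster of TGFβ1 replicate 1, at 74410606 to 74410646, passed the fold limit with 3.32. It missed the p limit with a −log10 p of 2.26. Within 500 nt of the 5′ end clusters were tested in the TGFβ1 libraries and in no control library, with log2 folds from 0.03 to 0.95, far below the limit.

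TM7SF3 was close to the limit in control. Its leading peak (chromosome 12, 26995237 to 26995330, minus strand) had 3.38 and 2.96 in control against 4.66 and 6.17 after TGFβ1, with means of 3.17 ± 0.29 and 5.41 ± 1.06 (SD, n = 2). Control replicate 1 passed the fold limit and missed the p limit with a −log10 p of 2.71, and control replicate 2 missed the fold limit with a −log10 p of 3.24. Each control library thus failed a different criterion of the call. The gap between the higher control and the lower TGFβ1 value was 1.28, the smallest of the 8 genes.

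DIXDC1 had its leading peak on chromosome 11 (112021899 to 112021983, plus strand), with 2.79 and 2.43 in control against 4.83 and 5.99 after TGFβ1. The means were 2.61 ± 0.26 and 5.41 ± 0.82 (SD, n = 2). A separate place in the gene, at 111995407 to 111995474, had an enriched cluster in TGFβ1 replicate 2 with a log2 fold of 4.48. TGFβ1 replicate 1 had 3.08 with a −log10 p of 1.78 there, and the control libraries had 0.38 and 0.58. This second place is not in the TGFβ1 list, and replicate 1 fell short of the p limit there.

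FHL3 had the same kind of profile from a gene of 8745 nt, the shortest of the 9. Its leading peak (chromosome 1, 37997767 to 37997869, minus strand) had 2.88 and 2.96 in control against 4.57 and 6.13 after TGFβ1, with means of 2.92 ± 0.06 and 5.35 ± 1.10 (SD, n = 2). It was the single enriched cluster in each TGFβ1 library, among 7 tested in each. In control 3 and 2 clusters were tested. Both control values lay just below the fold limit, and their −log10 p values of 1.70 and 1.63 fell well short of the p limit.

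SAMD11 met the rule at its leading peak but not over its whole site. That peak (chromosome 1, 943808 to 943810, plus strand) is 3 nt wide and abuts another TGFβ1-list peak at 943811 to 943881, with which it makes 1 site. At the leading peak the log2 folds were 3.32 and 3.51 in control against 5.57 and 5.61 after TGFβ1, with means of 3.41 ± 0.14 and 5.59 ± 0.02 (SD, n = 2). Both control values passed the fold limit, with −log10 p values of 2.51 and 2.74. At the abutting peak control replicate 2 was enriched, with 4.22 and a −log10 p of 5.03. The site was therefore enriched in 1 control library and missed the p limit in the other, at a lower fold than in the TGFβ1 libraries. NOC2L overlaps the 3′ end of SAMD11 on the opposite strand, beyond this site.

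SYBU carried 4 TGFβ1-list peaks that abut one another and make 1 site from 109575315 to 109575406 (chromosome 8, minus strand). Its leading peak, 109575342 to 109575366, had 2.88 and 2.85 in control against 4.53 and 5.95 after TGFβ1, with means of 2.86 ± 0.02 and 5.24 ± 1.01 (SD, n = 2). In the control libraries a single cluster covered this site. The gene had 3 and 7 tested clusters after TGFβ1 against 2 and 1 in control, few beside most of the other genes. The strand of SYBU was taken from the majority of its clusters, since no promoter window of it was at hand.

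XIAP had 3 TGFβ1-list peaks at 3 sites. Its leading peak (chromosome X, 123908125 to 123908182, plus strand) had 2.79 and 2.72 in control against 4.26 and 6.26 after TGFβ1, with means of 2.76 ± 0.05 and 5.26 ± 1.41 (SD, n = 2). A neighbouring peak at 123908218 to 123908282 followed it, with 2.25 and 2.85 in control against 3.71 and 5.34 after TGFβ1. At both places both TGFβ1 values lay above both control values.

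The third XIAP peak lay near the 5′ end of the gene, at 123860149 to 123860290. There the values were 1.75 and 3.17 in control against 2.82 and 5.23 after TGFβ1, and control replicate 2 was enriched with a −log10 p of 4.11. TGFβ1 replicate 1 was below control replicate 2, so the conditions overlapped at this 5′ place. TGFβ1 replicate 2 was also enriched at 123912960 to 123913047, with up to 4.77, where TGFβ1 replicate 1 had 2.08 and the control libraries 2.25 and 0.26. That place rests on 1 library.

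SHISA5 was the gene with most LARP6 peaks of the 9 in both conditions, 5 in the control list and 7 in the TGFβ1 list, which make 2 and 3 sites. Its strongest site, close to the annotated 3′ end (chromosome 3, minus strand), was enriched in all 4 libraries. At the TGFβ1-list peak 48468011 to 48468034 the log2 folds were 4.95 and 6.38 in control against 6.03 and 7.01 after TGFβ1, and the groups overlapped. The leading peak by the rule is a weaker one, 48468526 to 48468560, with 3.75 and 5.75 in TGFβ1 libraries (mean 4.75 ± 1.41, SD, n = 2) and no tested cluster in control. No fold can be given against a place without a cluster.

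A further SHISA5 site ran the other way. At the TGFβ1-list peak 48468942 to 48469003 the log2 folds were 3.79 and 3.93 in control against 3.15 and 2.97 after TGFβ1, with both control values above both TGFβ1 values. Among the 981 TGFβ1-list peaks with a cluster in every library, 6.73% had both TGFβ1 values below both control values. TGFβ1 replicate 2 had further enriched clusters upstream, the highest with 4.15 at 48469790 to 48469835, where no other library was enriched. Near the 3′ end of this gene the authors' lists thus held a site in both conditions, a site with tested clusters in the TGFβ1 libraries and none in control, and a site higher in control.

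**Figure D2:**
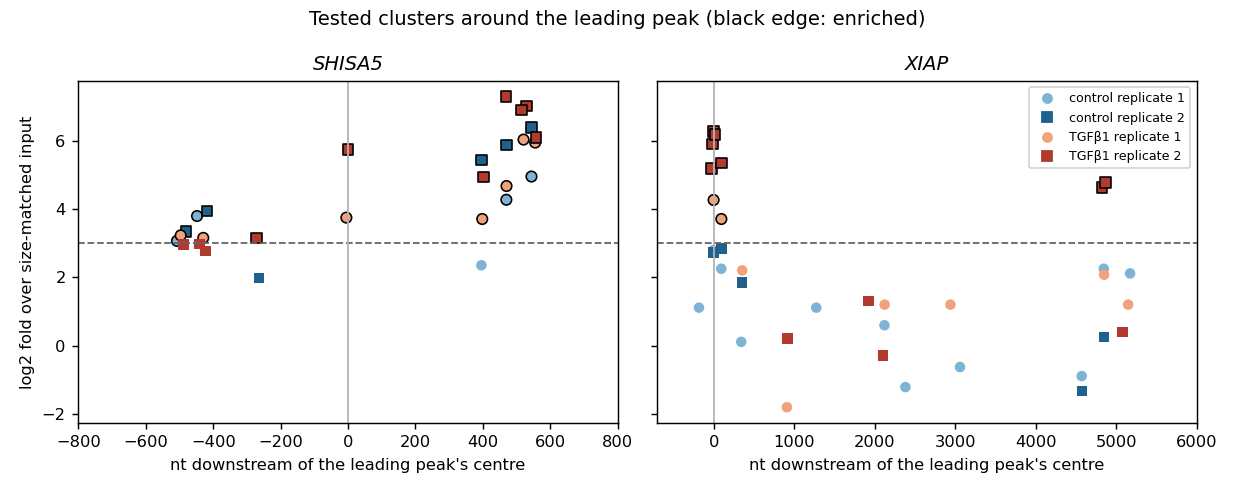
Log2 fold over size-matched input of each tested cluster against its distance in nt from the centre of the leading peak, downstream to the right, for SHISA5 and for the 3′ part of XIAP, with 1 point for each cluster and library, a black edge where enriched and a dashed line at 3. In SHISA5 enriched clusters of both conditions flank a centre with TGFβ1 points of 3.75 and 5.75 alone, and in XIAP the TGFβ1 points at the centre lie above 4 with control points of 2.79 and 2.72.

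Over whole genes, 1 of the 9 had an enriched cluster in control replicate 1 (SHISA5) and 3 in control replicate 2 (SAMD11, XIAP and SHISA5). All 9 had one in each TGFβ1 library, which the rule nearly ensures. Among protein-coding genes with a tested cluster, 3.05% and 5.17% had an enriched one in control against 6.71% and 12% after TGFβ1. The 9 genes together held 4 and 7 enriched clusters in control and 19 and 35 in TGFβ1 libraries. SHISA5 accounted for 4 and 5 of these in control and for 7 and 10 after TGFβ1. In either control library this makes 3 of 9 genes, against 8.1% of the 4173 protein-coding genes tested in all 4 libraries. Of those 4173 genes 8.89% had a TGFβ1-list peak, as all 9 genes do, so these shares come from unlike sets of genes. Without control replicate 2 it is 1 of 9, SHISA5. By the authors' own lists, 8 of the 9 genes had no control-list peak, SHISA5 being the exception, against 51.3% of 372 protein-coding genes of the TGFβ1 list. The highest log2 fold anywhere in the gene was higher in both TGFβ1 libraries than in both control libraries for 8 of the 9, again without SHISA5, and lower for none. Over the 4173 genes it was higher for 42.8% and lower for 5.44%. The choice of genes also makes a missing control-list peak and a higher TGFβ1 maximum likely. None of these contrasts with the background is therefore read as a result.

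The genes also held more tested clusters after TGFβ1. Together the TGFβ1 libraries held 61 and 100 of them against 41 and 42 in control. Per 10000 clusters of the library these were 19.6 and 18.3 after TGFβ1 against 7.996 and 10.5 in control. Per gene, both TGFβ1 shares lay above both control shares in 8 of 9, KCNK6 being the exception, against 31.1% of the 4173 protein-coding genes. That count depends on scaling to the library's total. By raw counts the conditions also overlapped in TM7SF3 (2 and 6 in control against 5 and 10), XIAP (14 and 9 against 13 and 16) and SHISA5 (9 and 13 against 12 and 20). In KCNK6 they met, with 3 and 5 against 5 and 5, and in the rest they stayed apart. SEMA7A had the widest gap, with 0.78 and 0.25 per 10000 in control and 2.89 and 2.93 after TGFβ1. XIAP had 2.73 and 2.26 against 4.18 and 2.93. In these bulk samples more cells expressing a gene, more of its RNA per cell and more binding cannot be told apart. These counts come from the libraries that chose the genes and carry no test.

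**Figure D3:**
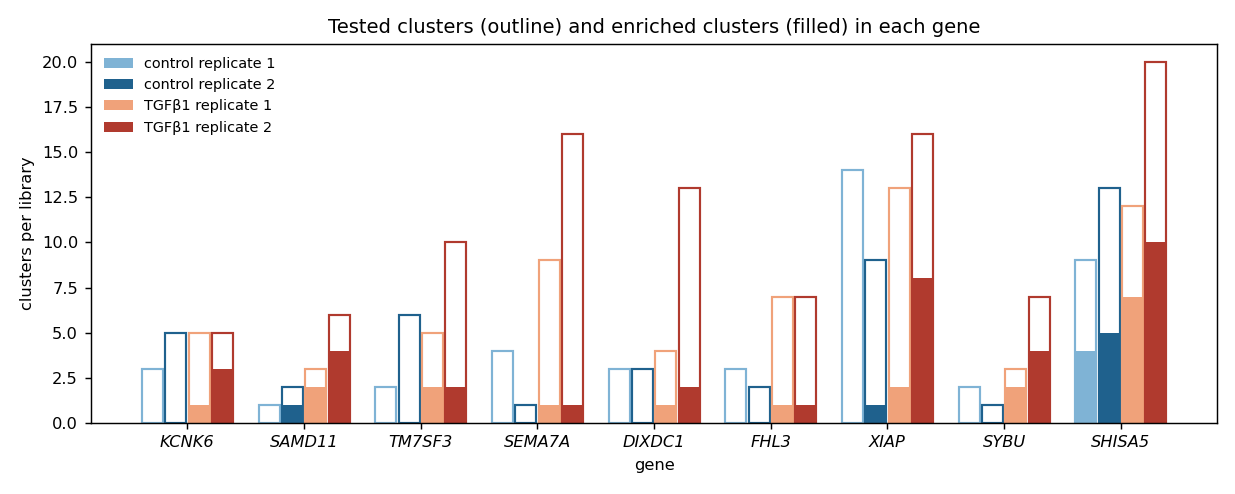
Number of tested clusters (outlined bars) and of enriched clusters (filled part) in each of the 9 genes, with 1 bar for each library in the order control replicates 1 and 2 and TGFβ1 replicates 1 and 2. SEMA7A goes from 4 and 1 tested clusters in control to 9 and 16 after TGFβ1, and filled control bars appear in SAMD11, XIAP and SHISA5.

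In control the highest cluster of the gene lay at the leading peak, or within 20 nt of it, in both libraries for SAMD11, TM7SF3, SEMA7A, DIXDC1, FHL3 and SYBU, which makes 6 of 9. For KCNK6 and XIAP this held in 1 control library and for SHISA5 in neither. In SEMA7A another cluster had the same value of 1.38 in control replicate 1. Of 371 protein-coding genes of the TGFβ1 list tested in all 4 libraries, 73.9% had their highest TGFβ1-list peak at the highest control cluster in both control libraries. The share among the 9 genes is near this background and is no particular feature of them.

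Most leading peaks lay near the annotated 3′ end of the gene. This measure was not used to choose the genes, and the limit of 2000 nt was set after the distances were seen. Of the 9, 7 lay within 2000 nt of the 3′ end, against 36.1% of 363 other protein-coding genes of the TGFβ1 list. The distances were 667 nt in SHISA5, 712 in DIXDC1, 765 in SAMD11, 1048 in FHL3, 1224 in SEMA7A, 1376 in SYBU and 1827 in KCNK6. XIAP and TM7SF3 were the exceptions, with peaks 89.3% and 44.6% of the way along the gene.

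The median distance from the 3′ end was 1224 nt for the leading peaks of the 9 genes and 4451 nt for the highest peaks of the others. None of the 9 leading peaks lay within 500 nt of the 5′ end, where 43 of the 363 other genes (11.8%) had their highest peak. Distances are along the gene with introns, and exons and untranslated regions were not annotated here, so a place in the transcript is not given. With 9 genes no test of this share was made.

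**Figure D4:**
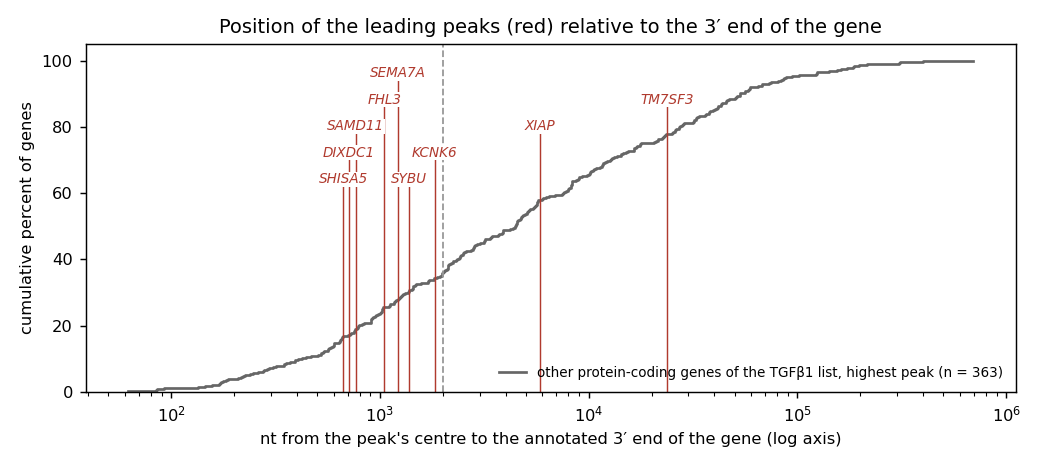
Distance in nt (log axis) from the centre of the peak to the annotated 3′ end of the gene, with red lines for the leading peaks of the 9 genes (their height has no meaning), a grey line for the cumulative percent of the 363 other protein-coding genes of the TGFβ1 list by their highest peak, and a dashed line at 2000 nt. Of the red lines 7 stand left of 2000 nt, where the grey line is at 36.1%.

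For 372 other genes of the TGFβ1 list with values in all 4 libraries, the log2 folds were set beside the median of the 9 genes. That median was 2.84 and 2.85 in control, over the 8 genes with control values, and 4.57 and 5.99 in TGFβ1 libraries. The profile most like it was that of PDLIM2, which encodes a PDZ and LIM domain protein. Its highest peak had 2.96 and 3.02 in control against 4.64 and 5.999 after TGFβ1, at a Euclidean distance of 0.22. PLCG1, a phospholipase C gene, followed at 0.59 and PAK2, a kinase gene, at 0.75. PAK2 is also the second gene past the limit of the rule. The PDLIM2 peak falls outside the rule, since control replicate 2 was enriched there, with a −log10 p of 3.47. With 4 libraries such likeness is a description of 4 values.

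Families and pathways around the 9 genes were looked at through 9 lists with 186 genes, of which 71 were tested in all 4 libraries. Of the 71, 3 had a control-list peak (4.23%, against 5.01% of all 4173 protein-coding genes tested) and 8 had a TGFβ1-list peak (11.3%, against 8.89%). The median of the gene's highest log2 fold, TGFβ1 minus control, was 0.53 over the 71 genes and 0.63 over the 4173. The relatives as a whole were thus near the background.

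No tandem-pore potassium channel other than KCNK6 had a peak in either list, and 4 of 14 had a cluster in any library. None of 19 genes around XIAP, such as other inhibitors of apoptosis and caspases, had a listed peak, with 12 having a cluster. The same held for the p53 target genes (0 of 18, with 16 having a cluster) and the Shisa family (0 of 10, with 1 having a cluster). The p53 target list, with 12 genes tested in every library, was the best covered of these 4.

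The semaphorin list held PLXNA2, a semaphorin receptor, with 2.38 and 3.26 in control against 3.87 and 4.93 after TGFβ1 and a peak in the TGFβ1 list alone. It also held ITGB1, an integrin chain that serves as a receptor of SEMA7A, with peaks in both lists and 2.91 and 4.92 against 3.25 and 4.32. In the LIM list PDLIM2 alone had peaks, 6 of them, all in the TGFβ1 list. Neither PLXNA2 nor PDLIM2 had a control-list peak, while ITGB1 had 3. The highest peak of PDLIM2 was still enriched in control replicate 2, with 3.02 and a −log10 p of 3.47.

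In the Wnt list FZD2, a receptor, had a peak in both lists with 5.12 and 4.78 in control against 3.77 and 5.34 after TGFβ1. CTNNB1, which encodes β-catenin, had a peak in the TGFβ1 list alone, with 2.70 and 1.38 against 4.48 and 3.72 and its centre 92 nt before the annotated end of the gene. FEZ1, a kinesin adaptor, was in both lists with 3.65 and 4.07 against 4.14 and 4.63. Of the Polycomb and SAM domain list, PHC3 (2.88 and 4.07 against 3.79 and 5.48) and SAMD4A (1.79 and 1.72 against 3.26 and 4.28) were in the TGFβ1 list alone. At its peak PHC3 was still enriched in control replicate 2, with a −log10 p of 4.56. Values of CTNNB1, SAMD4A, PLXNA2, PDLIM2 and FEZ1 did not overlap between conditions and those of ITGB1, FZD2 and PHC3 did. That is 5 of 8 genes, where 44.8% of the 981 peaks were higher in both TGFβ1 libraries, and nothing is read from it.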

How the data were processed

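LARP6 eCLIP peak files of 4 immunoprecipitated libraries and 2 lists made by the authors from both replicates of a condition were used. The inputs enter through the fold values. Reads were handled with cutadapt, STAR (GRCh38) and UMI-tools, per the submitters' processing notes. How peaks were called, normalised to input and joined across replicates is not given in the sources used here. No file has a header. From the range of the values, column 5 was taken to hold log2 folds over input, as deposited, and column 4 the −log10 of the authors' p-value, which stops at 400.

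A cluster was assigned to a gene at its midpoint, on the gene's strand (bounds from RefSeq GRCh38.p14, strand from the RefSeq promoter table, else from at least 3 clusters of which 80% agree). Overlap meant at least 1 nt on the same strand. Where several clusters overlapped a peak, the highest fold was taken. Peaks at most 20 nt apart were merged into sites. Coordinates are 1-based. Genes named are the 9 members, up to 2 relatives per list with the highest TGFβ1-list fold, 3 genes past the rule's limit, 3 with the most similar profile, and genes overlapping a member. Members and lists were chosen with earlier results of these data known. No test was run between conditions. Overlap code was tested on simulated data, where 500 of 500 planted counterparts were found among 1008 peaks. Scripts ran in Python 3.11.15 with pandas 2.3.3, NumPy 2.4.6, matplotlib 3.10.9 and SciPy 1.17.1. Alternatives were other limits for fold, p, overlap and merging, gene assignment by any overlap, each replicate left out, and values within a replicate number.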

Additional observations from a re-analysis of the deposited data

How the results depend on the processing

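The number of genes among the 9 with an enriched control cluster at the leading peak was 0 by the rule. It became 1 with a log2 fold limit of 2 (TM7SF3), 2 with no limit for p (SAMD11 and TM7SF3) and 1 when clusters at most 20 nt apart counted (SAMD11), alternatives chosen after seeing the data. With a fold limit of 4, the mean number of enriched clusters per control library in these genes was 3 in place of 5.5. The number of genes with an enriched control cluster anywhere was 3. It was 4 with a fold limit of 2 and with no p limit, and 2 with a fold limit of 4 and with a p limit of 5. Without control replicate 1 it was 3, and without control replicate 2 it was 1. The median difference at the leading peaks, 2.47, ranged from 1.91 to 3.29 when a library was left out, the latter without TGFβ1 replicate 1, and was 1.86 within replicate 1. All 72 values of single genes under the alternatives, within-replicate ones included, stayed above 0, from 1.28 to 4.47. Leaving out a library or staying within a replicate number could not have given a value below 0. In all 8 genes with control values, both TGFβ1 values already lay above both control values. The sign is therefore no support for the difference.

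The share of all TGFβ1-list peaks without an enriched control cluster was 24.6% (95% Wilson interval 22.0 to 27.4, counting error only). It was 18.5% and 46.7% with fold limits of 2 and 4, and 17.9% and 35.7% with no p limit and a p limit of 5. Leaving out a library gave 26.5% to 53.6%, with 46.3% without control replicate 2 and 53.6% without TGFβ1 replicate 1, where the enriched clusters of the remaining library stood for the list. The cause was not tested.

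With the replicate number as a block, the median difference was 1.86 within replicate 1 and 3.19 within replicate 2. The differences between replicates 2 and 1 in control and in TGFβ1 had a correlation of 0.01 across 981 peaks. This value cannot show whether libraries with the same number were handled as pairs, which is not stated. Read depth is unknown, so its effect on these values was not measured.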
